A study of Mus musculus with 6 samples.

Results

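The odontoblast and dentin mineralization genes examined here are 10 genes chosen by name, *Dspp*, *Dmp1*, *Ibsp*, *Mepe*, *Spp1*, *Phex*, *Alpl*, *Bglap*, *Sp7* and *Runx2*, and 9 of them are among the 19270 genes of the expression table. No expression value of *Mepe* was analysed here, and only its position and promoter are described. RNA was sequenced from mesenchyme dissected at the proximal end of the incisor, in 3 control and 3 mutant samples, with tamoxifen given at 1 month of age and the tissue taken 4 days later. The mutants carried *Gli1-CreER* and homozygous floxed *Arid1b* alleles (*Gli1-CreER;Arid1b fl/fl*). Their CreER recombinase is expressed from *Gli1*, whose cells give rise to dental mesenchyme and also to dental epithelium, so the deletion is not limited to the odontoblast lineage. The labels call the controls wild type, whereas the methods describe them as *Arid1b fl/fl* mice, and both groups received tamoxifen. Neither the labels nor the methods say whether a sample was 1 mouse or several pooled.

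The table gives 1 normalized signal per gene and group, the authors' mean over the libraries, and all values below are these means or their ratios, with controls given before mutants. The spread between samples of a group was therefore not analysed here, no difference was tested, and none can be said to exceed the spread between replicates. The targeted gene *Arid1b* (chromosome 17, 4994332 to 5347656) had an authors' mean of 97.6 in controls and 38.0 in mutants. The upper quartiles of the libraries lay between 44.57 and 44.58, and if the lowest value of a library is 1 read, the libraries held 37142913 to 49613739 reads. The groups differed in sex-linked transcripts, with *Xist* at 3368 in controls and 813.8 in mutants, and *Ddx3y* at the lowest of all control means and 65.3 in mutants. The control mean of *Ddx3y*, 0.0259, equals the mean of the control libraries' lowest values, so this Y-linked transcript rose above the lowest value only in mutants. The labels give no sex, but its make-up thus differed between the groups. Sex and genotype therefore cannot be told apart in any value below.

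Dentin is laid down by odontoblasts, which line the dental pulp and derive in the continuously growing incisor from mesenchymal stem cells (MSCs) through transit-amplifying cells and pre-odontoblasts. Odontoblasts secrete a collagen I matrix and the acidic phosphoproteins of the SIBLING family (small integrin-binding ligand, N-linked glycoproteins), which bind calcium and control where and how mineral crystals form. RUNX2 starts the skeletal and dental mineralization program and SP7 (osterix) acts downstream of it. The phosphatase encoded by *Alpl* removes the mineralization inhibitor pyrophosphate, and the endopeptidase PHEX cleaves inhibitory peptides of SIBLING proteins.

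Since 2 of the members encode transcription factors, promoters of the members are shown with the core site of the RUNX family, TGTGGT or its reverse complement ACCACA, in capitals. The sequences are the 250 bases before the RefSeq start on GRCm38.p6, the assembly also named mm10. The promoters of *Dmp1* and *Spp1* are printed because these were the members with the lowest and the highest ratio of mutant to control, and that of *Bglap* because osteocalcin is a textbook target of RUNX2.
*Dmp1* (chr5:104202367-104202616, plus strand): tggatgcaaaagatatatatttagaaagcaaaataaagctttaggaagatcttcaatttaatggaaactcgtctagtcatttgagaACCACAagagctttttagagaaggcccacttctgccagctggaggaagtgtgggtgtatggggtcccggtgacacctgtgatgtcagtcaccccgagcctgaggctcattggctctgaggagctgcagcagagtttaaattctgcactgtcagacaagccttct
*Spp1* (chr5:104434861-104435110, plus strand): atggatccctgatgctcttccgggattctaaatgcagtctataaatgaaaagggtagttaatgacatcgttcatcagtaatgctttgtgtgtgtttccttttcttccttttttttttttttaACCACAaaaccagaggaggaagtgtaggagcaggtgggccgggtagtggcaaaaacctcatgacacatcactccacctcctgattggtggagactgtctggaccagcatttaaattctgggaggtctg
*Bglap* (chr3:88384467-88384716, minus strand): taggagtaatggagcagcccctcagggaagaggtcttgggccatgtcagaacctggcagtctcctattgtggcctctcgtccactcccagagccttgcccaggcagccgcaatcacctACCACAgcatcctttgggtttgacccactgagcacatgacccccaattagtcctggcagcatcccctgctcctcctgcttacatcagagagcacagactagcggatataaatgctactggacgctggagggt
The RUNX core began 164 bases before the start in *Dmp1*, 128 in *Spp1* and 132 in *Bglap*. Of the 8 members with a RefSeq promoter, 5 held at least 1 RUNX core (*Dmp1*, *Mepe*, *Spp1*, *Bglap* and *Runx2* itself), against 14.0% of 32841 RefSeq promoters in the same 250 bases. The homeobox core TAATT or AATTA, of the kind bound by DLX and MSX factors, was found in 4 of the 8 (*Ibsp*, *Mepe*, *Phex* and *Bglap*), against 25.0% of all promoters. *Dmp1* and *Spp1*, whose ratios lay at opposite ends, each held 1 RUNX core and no homeobox core. These matches describe the letters of the window and not bound sites.

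Among the members, *Spp1* was higher in the *Arid1b* mutants by more than 1.5-fold, *Dmp1* was lower by more than 1.5-fold, and the other 7 genes lay within 1.5-fold of the controls. A mutant mean more than 1.5-fold above the control mean was found for 7.37% of all 19270 genes and for 2.15% of the 10311 genes whose mean over both groups was 10 or more, a level that all 9 members exceeded. A control mean more than 1.5-fold above the mutant mean was found for 5.80% of all genes and for 0.912% of those with a mean of at least 10. With 1 of 9 members past this fold in each direction, the counts are too small to set the group apart from these shares. In direction, 3 members were higher and 6 lower in mutants, and the median log2 ratio of mutant to control over the 9 was -0.22, whereas the median over all genes was 0.0022.

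**Figure D1:**
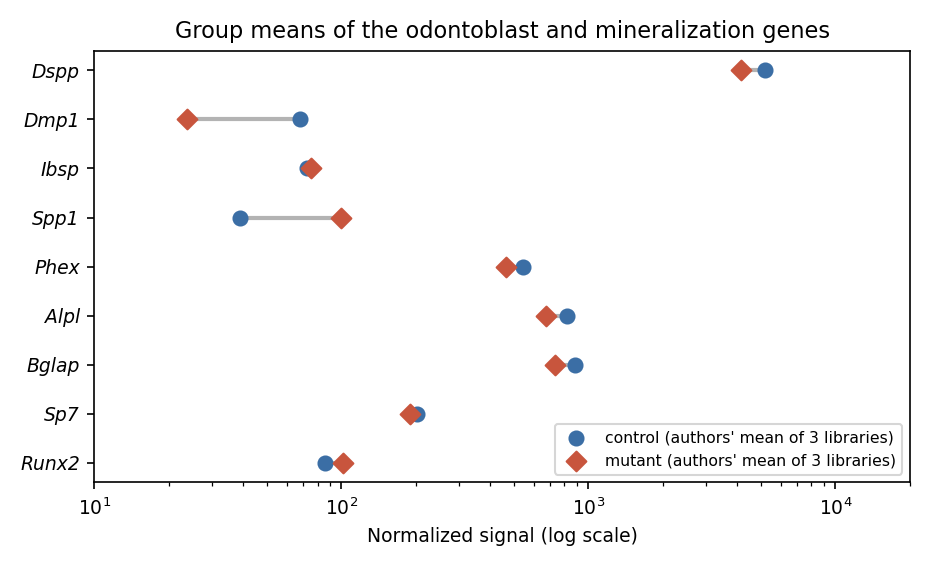
The authors' mean of normalized signal (horizontal axis, log scale) is plotted for each of the 9 genes in control (circles) and *Arid1b* mutant (diamonds) samples, without error bars because no value per sample was analysed. *Dmp1* and *Spp1* show wide gaps in opposite directions, while *Dspp*, *Phex*, *Alpl* and *Bglap* lie slightly lower in the mutants.

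The SIBLING genes showed the widest range. *Dspp* encodes dentin sialophosphoprotein, the precursor of the main non-collagenous proteins of dentin and the defining product of mature odontoblasts. Its authors' mean was 5179 in controls and 4136 in mutants, a ratio of 0.799 (log2 ratio -0.32). *Dspp* alone made up 0.507% of the summed signal of all genes in controls and 0.422% in mutants, so this defining odontoblast transcript was abundant in both groups. *Dmp1* encodes dentin matrix acidic phosphoprotein, which is made by odontoblasts and strongly by osteocytes. Its authors' mean was 68.1 in controls and 23.7 in mutants, 2.87-fold lower in the mutants (log2 ratio -1.52). Among the 10311 genes at or above a mean of 10, only 4 had a lower ratio than *Dmp1*, which ranked 5 from the lowest. Near it in this ranking were the erythroid markers *Hbb-bs*, at rank 4 with a log2 ratio of -1.54, and *Hba-a2*, at rank 7 with -1.45. Within the pair that is most closely tied to dentin, the ratio of *Dspp* to *Dmp1* signal was 76.0 in controls and 174.5 in mutants, without correction for length, which does not affect the comparison of the groups.

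*Ibsp* encodes bone sialoprotein, a nucleator of hydroxyapatite that is typical of bone and cementum. It had nearly the same authors' mean in both groups, 72.4 in controls and 75.4 in mutants, with a log2 ratio of 0.059. *Spp1* encodes osteopontin, which restrains crystal growth, binds integrins and CD44, and is also made by osteoclasts, macrophages and epithelia. Its authors' mean was 38.9 in controls and 99.2 in mutants, 2.55-fold higher in the mutants (log2 ratio 1.35), and it ranked 37 from the highest ratio among the 10311 genes. The ratios of *Spp1* and *Dmp1* thus differed by 7.33-fold from each other, a value that scaling a whole group by 1 factor leaves unchanged. The median log2 ratio of the 4 SIBLING genes was -0.13, which describes none of *Dmp1*, *Ibsp* and *Spp1*.

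Even the lowest signal rested on many reads. If the lowest value of a library is 1 read, the mutant mean of *Dmp1*, the lowest signal of any member, corresponds to about 1028 reads per library, and its control mean to 2634. A group mean cannot show whether a difference was shared by the samples. If 2 of the 3 control samples had the mutant mean of *Dmp1*, the whole difference would need a value of 156.9 in the third. For *Spp1*, if 2 of the 3 mutant samples had the control mean, the third would need 219.8.

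In the genome the SIBLING genes form a cluster on chromosome 5. In GENCODE vM21 on GRCm38 they lie in the order *Dspp* (104170712 to 104180127), *Dmp1* (104202613 to 104214102), *Ibsp* (104299171 to 104311469), *Mepe* (104325329 to 104338611) and *Spp1* (104435118 to 104441050), all on the plus strand and within 270.3 kb. The members that differed most in ratio sat near opposite ends of this stretch, with *Dmp1* starting 31.9 kb and *Spp1* 264.4 kb downstream of the *Dspp* start. The flanking gene *Sparcl1*, whose product is an extracellular matrix protein related to SPARC, had an authors' mean of 80.8 in controls and 130.2 in mutants (log2 ratio 0.69). *Pkd2*, which encodes the channel polycystin-2 and flanks the cluster on the other side, had means of 195.9 and 183.8 (log2 ratio -0.09). The transcript *Gm42793*, annotated within *Spp1* on the same strand, had an authors' mean of 0.0773 in controls and 0.131 in mutants. How the authors assigned reads shared by overlapping genes is not given in the sources used here, but the signal listed for *Gm42793* was small beside that of *Spp1*.

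**Figure D2:**
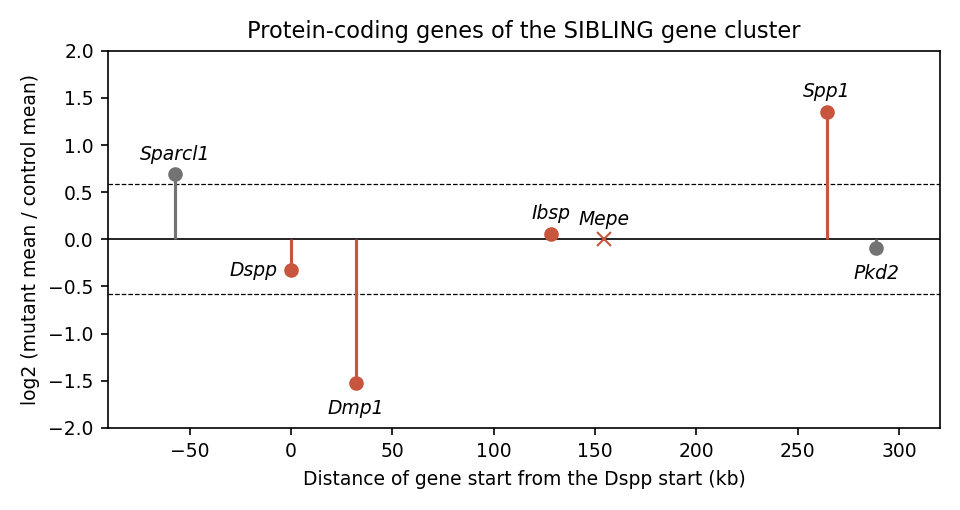
The log2 ratio of the authors' mutant and control means (vertical axis) is plotted against the distance of each gene's start from that of *Dspp* in kb (horizontal axis) for the protein-coding genes from *Sparcl1* to *Pkd2*, with SIBLING genes in red and flanking genes in gray. A cross at 0 marks *Mepe*, for which no value was analysed, and dashed lines mark 1.5-fold. *Dmp1* at -1.52 and *Spp1* at 1.35 point in opposite directions, with *Ibsp* near 0 between them.

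The mineralization enzymes and osteocalcin were all modestly lower in the mutants. *Phex*, which lies on the X chromosome (157162075 to 157415312, minus strand) and whose loss causes X-linked hypophosphatemia with poorly mineralized dentin, had an authors' mean of 541.0 in controls and 464.3 in mutants, a ratio of 0.858. *Phex* is the X-linked gene among the members, and the part of the difference in sex-linked transcripts in its ratio was not tested. *Alpl* (chromosome 4, 137741733 to 137796384, minus strand), the tissue-nonspecific alkaline phosphatase, had means of 816.6 and 671.5, a ratio of 0.822. *Bglap* (chromosome 3, 88383501 to 88384464, minus strand) encodes osteocalcin, a vitamin K-dependent protein that binds hydroxyapatite. Its means were 881.9 in controls and 732.4 in mutants, a ratio of 0.831.

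*Bglap* has near-identical copies, and its reads may have been split among them. The reference transcript of *Bglap* matched that of *Bglap2* at 434 of 439 aligned bases (98.9%) and that of *Bglap3* at 423 of 439 (96.4%). *Bglap2* had an authors' mean of 222.2 in controls and 195.8 in mutants, and *Bglap3* had 5.25 and 4.15. All 3 copies were lower in the mutants, so the direction for osteocalcin did not depend on which copy received the reads.

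The transcription factors had ratios on both sides of 1 and close to it. *Sp7* (chromosome 15, 102356606 to 102367182, minus strand), required for osteoblast and odontoblast maturation, had an authors' mean of 203.2 in controls and 189.7 in mutants, a ratio of 0.933. *Runx2* (chromosome 17, 44495987 to 44814797, minus strand), which is needed for early tooth development and is turned down as odontoblasts mature, had means of 86.0 and 101.4, a ratio of 1.18. The signal of *Sp7* was 2.36 times that of *Runx2* in controls and 1.87 times in mutants, again without correction for length. *Runx2* overlaps *Supt3* and antisense transcripts on the opposite strand, and whether reads were counted by strand is not given in the sources used here. *Supt3* had means of 9.79 and 9.12, and *Runx2os1*, the antisense transcript listed in the table, 0.389 and 0.464, all far below those of *Runx2*.

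Levels were compared between genes as signal per kb of annotated exon, which assumes that the authors' normalization did not already correct for length. In the controls, *Bglap* (1427 per kb) and *Dspp* (1169 per kb) stood highest, followed by *Alpl* (202.5 per kb), *Phex* (86.0 per kb), *Sp7* (59.8 per kb), *Ibsp* (35.0 per kb), *Dmp1* (24.6 per kb), *Spp1* (23.6 per kb) and *Runx2* (9.73 per kb). In the mutants the first 4 genes kept this order, with *Bglap* at 1185 and *Dspp* at 933.4 per kb. *Spp1*, at 60.2 per kb, then stood above *Sp7* at 55.8, while *Dmp1*, at 8.58 per kb, stood below *Runx2* at 11.5. Which neighbours in these orders differ beyond the spread between samples was not tested.

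**Figure D3:**
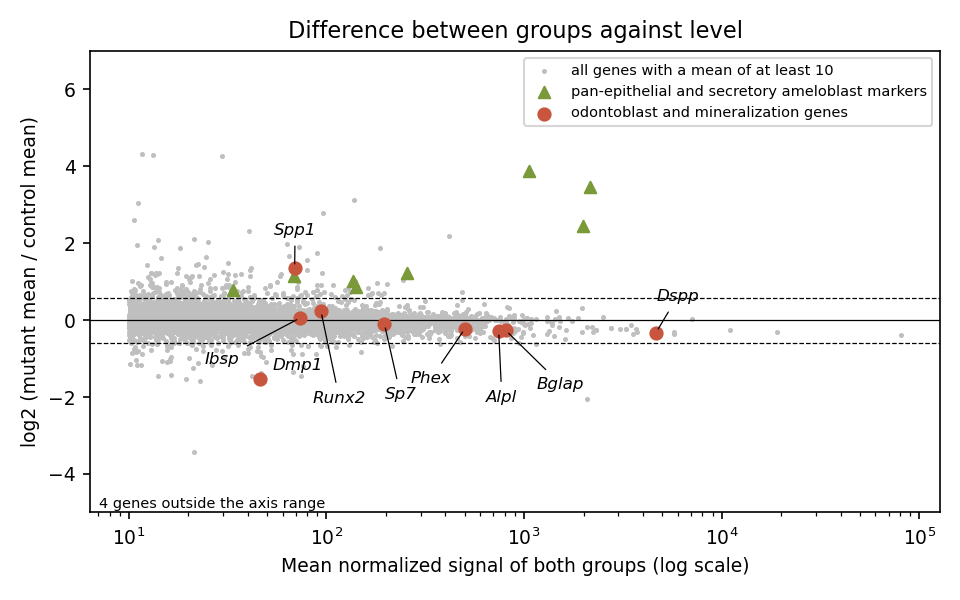
The log2 ratio of the authors' mutant and control means (vertical axis) is plotted against the mean of both groups (horizontal axis, log scale) for the 10311 genes at a mean of 10 or more (gray), the 9 odontoblast and mineralization genes (red) and the pan-epithelial and secretory ameloblast markers (green triangles). Dashed lines mark 1.5-fold, and 4 genes lie outside the plotted range. *Dmp1* and *Spp1* lie at the edges of the cloud for their level, and the epithelial markers lie above it.

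Genes that work with the members were examined as 5 lists, of which 39 of 40 genes were in the table. Of these 39 genes, 12 were higher and 27 lower in the mutants, 1 was past 1.5-fold in each direction, and the median log2 ratio was -0.063. The 9 genes of mineral ion and phosphate handling had a median of -0.27, with 6 lower, 3 higher and none past 1.5-fold. The gene with the highest signal, *Slc20a2*, a sodium-phosphate transporter, had authors' means of 778.7 in controls and 569.3 in mutants. The 9 matrix partners and proteases had a median of -0.13, with 7 lower and none past 1.5-fold. *Col1a1*, the main chain of the collagen scaffold of dentin, had means of 21211 and 17127, a ratio of 0.807 close to that of *Dspp*.

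The 10 transcription regulators had a median log2 ratio of -0.028, with 8 lower and none past 1.5-fold, and the highest signal was that of *Dlx3*, a homeobox factor of odontoblasts and ameloblasts, with means of 469.9 and 361.7. All 5 odontoblast-associated genes were lower in mutants, some only barely, with log2 ratios from -0.65 to -0.034 and a median of -0.32. Among them *Nes*, the intermediate filament nestin of differentiating odontoblasts, had means of 575.6 and 429.6, and *Sall1*, a zinc finger factor, was 1.57-fold lower with means of 25.4 and 16.2. The 6 SIBLING receptors were the only one of the 5 lists with a median above 0, at 0.22, with 5 higher and 1 lower. *Cd44*, a receptor of osteopontin, had an authors' mean of 129.3 in controls and 208.5 in mutants, 1.61-fold higher. *Itgb1*, the integrin subunit with the highest signal of the list, had means of 803.0 and 817.9.

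Markers of the tissue and of other cell types moved beside these genes. All 8 dental mesenchyme markers were present and lower in the mutants, with a median log2 ratio of -0.22, equal to that of the members to 2 decimals. Their summed signal was 2419 in controls and 2004 in mutants, a ratio of 0.828, and the summed signal of the 9 members had a ratio of 0.823, or 0.871 without *Dspp*. The marker sum rested largely on *Vim*, with means of 1463 and 1208. Log2 ratios of single markers ranged from -1.21 for *Gli1* to -0.0037 for *Pax9*. *Gli1*, which drives the recombinase and marks MSCs, was the marker past 1.5-fold, with means of 106.4 and 46.1. The methods describe the controls without the *Gli1-CreER* allele. An effect of this allele on *Gli1* signal therefore cannot be told apart from the loss of *Arid1b*, and its part was not tested. In whole tissue, fewer cells of a type and less RNA per cell cannot be told apart.

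Epithelial markers were higher in the mutants, although mesenchymal tissue was dissected. The 5 pan-epithelial markers summed to 412.0 in controls and 858.3 in mutants, with log2 ratios from 0.78 to 1.22. The 3 secretory ameloblast markers *Amelx*, *Ambn* and *Enam* summed to 1115 in controls and 9290 in mutants, 8.33-fold higher. The 9 members summed to 7887 in controls and 6494 in mutants, of which *Dspp* gave 5179 and 4136. This sum went in the opposite direction to the enamel matrix transcripts, as did 6 single members, while *Ibsp*, *Spp1* and *Runx2* were higher in the mutants. Ameloblast lineage cells are known to transcribe several of the members, *Dspp* transiently and also *Alpl*, *Runx2*, *Sp7* and *Spp1*, and the part of epithelial RNA in their ratios was not tested.

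For *Spp1* and *Dmp1*, bone and osteoclast markers were read beside the values. All 6 osteoblast and osteocyte markers were lower in the mutants, with a median log2 ratio of -0.26 and sums of 514.6 and 472.4. They include the copies *Bglap2* and *Bglap3*, whose reads may be shared with *Bglap*, so this list is not independent of the members. *Bglap2* gave 222.2 of the control sum and 195.8 of the mutant sum. The osteocyte marker *Sost* had means of 7.81 in controls and 3.69 in mutants, and *Ifitm5*, a marker of mineralizing osteoblasts, had 3.27 and 1.56, both past 1.5-fold at low levels. Of the 5 osteoclast markers in the table, 4 were more than 1.5-fold higher in the mutants, namely *Acp5* with means of 12.9 and 28.1, *Mmp9* with 9.25 and 16.9, and *Ocstamp* and *Dcstamp* with means under 0.2 in both groups. *Ctsk*, which encodes cathepsin K and had the highest signal of the list, had means of 79.4 and 76.0. The summed signal of the 5 markers was 101.8 in controls and 121.4 in mutants. The 6 macrophage markers were all higher by less than 1.5-fold, with sums of 252.8 and 281.0. *Sost* and *Ifitm5* were lower by more than 1.5-fold together with *Dmp1*, at means under 10. The other markers of their list lay within 1.5-fold, such as *Omd* with means of 239.7 and 234.6 and *Pth1r* with 36.4 and 32.6. *Acp5* and *Mmp9*, but not *Ctsk*, were higher together with *Spp1*. The part of these cell types in either result was not tested.

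**Figure D4:**
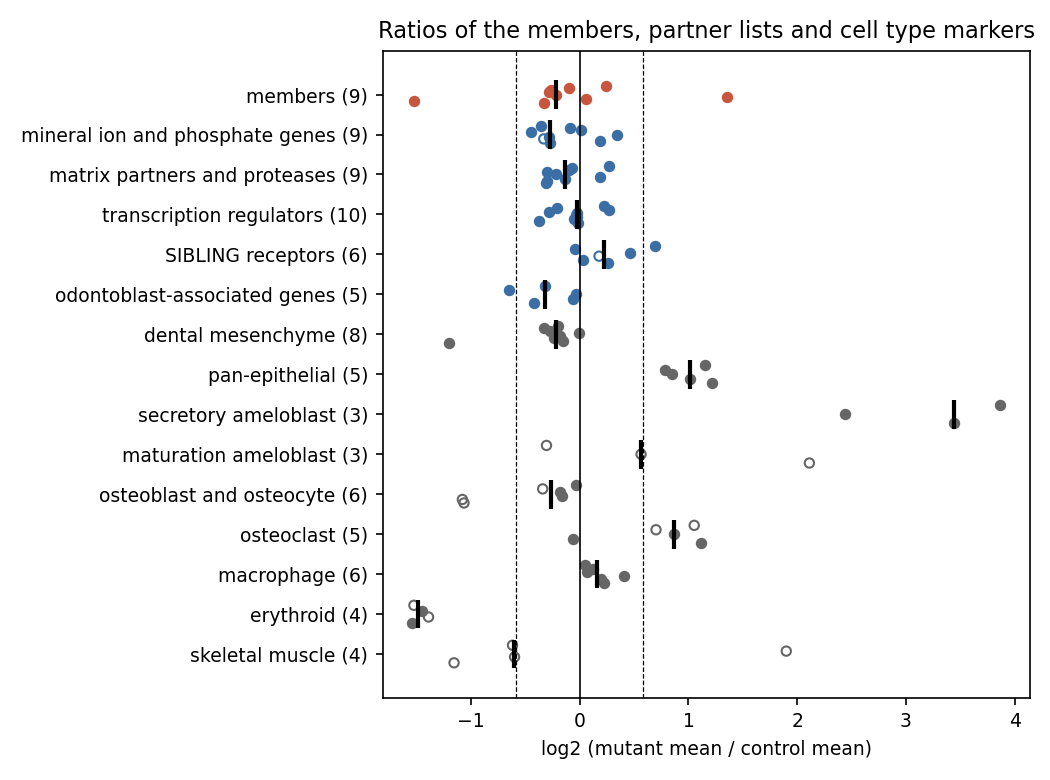
Each point is the log2 ratio of the authors' mutant and control means of 1 gene (horizontal axis), in rows for the members (red), the lists of genes that work with them (blue) and cell type markers (gray), with the number of genes in brackets. Black bars are medians, open circles are genes with a mean under 10, and dashed lines mark 1.5-fold. The members' median of -0.22 lies beside that of the dental mesenchyme markers, and the secretory ameloblast markers lie farthest to the right.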

How the data were processed

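RNA of the proximal incisor mesenchyme was sequenced in 3 control and 3 mutant samples, grouped by their titles. Per the methods, trimming, alignment to mm10 and the comparison of groups were done by the authors in Partek Flow. The submitters' processing notes name TopHat2 2.0.8. The annotation, the counting and the normalization are not given in the sources used here. The deposited signal is 1 normalized mean per gene and group, and another table gives the quartiles, mean and extremes of this signal in each library. Averaged over a group, the libraries' minima gave exactly the lowest group mean. The table also holds the p-values, FDR, ratios and fold changes of the authors' comparison, and a filtered table holds the genes they selected with them, and none of these was used.

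From the means, log2 ratios, counts past 1.5-fold and medians of lists were computed without a pseudocount or filter. The test planned for values per sample could not be run on group means. The calculation was run on simulated data with planted changes and counting noise only. These data held no spread between mice, so they checked the arithmetic and not the differences described here. Members and lists were chosen with earlier results of these data known. The genes named are the 10 members, *Arid1b*, the copies of *Bglap*, genes from *Sparcl1* to *Pkd2*, and from each list of partner genes the gene with the highest signal and those past 1.5-fold with a mean of at least 10. *Xist*, *Ddx3y*, the genes overlapping *Runx2* and the single markers were named after their values were seen. Positions and exon lengths are from GENCODE vM21 and promoters from RefSeq on GRCm38.p6, without entries for *Dspp* and *Sp7*. *Bglap* transcripts were aligned locally. Python 3.11.15, numpy 2.4.6, pandas 2.3.3, Biopython 1.88 and matplotlib 3.10.9 were used. Alternatives were other fold thresholds, scalings, pseudocounts and filters.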

Additional observations from a re-analysis of the deposited data

How the results depend on the processing

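Group means carry no spread, so a shift under 0.1 on the log2 scale was taken as small. *Spp1* remained the member more than 1.5-fold higher, and *Dmp1* the member more than 1.5-fold lower, under every alternative run at that threshold and also at 2-fold. At the lowest threshold tried, which *Dspp* passed narrowly at 1.252-fold, 2 members were lower, *Dspp* and *Dmp1*. The shares of all genes past this threshold and past 2-fold were not computed, so these counts are not set against a background. The mean in place of the median gave -0.12 for the members. Relative to the median of the 8 dental mesenchyme markers, an alternative chosen after seeing the data, the median of the members was -0.00098, that of the SIBLING genes turned from -0.13 to 0.087 and *Sp7* turned from -0.10 to 0.12, which follows from adding 0.22 to every ratio. Scaling to equal totals, centring on the median ratio of genes whose mean reached 10, a pseudocount of 1, subtraction of the lowest value, the minimum mean of 10 and summing the *Bglap* copies shifted no member by more than 0.061. No paired analysis was possible because the table analysed here gives 1 mean per gene and group, and for the same reason no replicate could be left out. With 3 samples a group and no values per sample, no difference was tested.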

Other observations

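Transcripts of blood were lower in the mutants, while those of muscle, at low levels, went in both directions. All 4 erythroid markers were more than 1.5-fold lower in the mutants, with summed authors' means of 59.2 in controls and 21.1 in mutants. Of these 4, 2 had a mean over both groups under 10, while *Hbb-bs* had means of 29.0 and 9.97 and *Hba-a2* 20.4 and 7.49. The 4 skeletal muscle markers summed to 4.99 and 4.45, with 3 more than 1.5-fold lower and 1 more than 1.5-fold higher, each with a mean under 10. The 3 maturation ameloblast markers summed to 5.83 and 16.2, each with a mean over both groups under 10. This sum rested on *Amtn*, with means of 3.01 and 13.0, while *Odam* had 1.33 and 1.97 and *Klk4* had 1.49 and 1.21.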
